A study of Mus musculus with 5 samples.

Results

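Aerobic cells detoxify superoxide and peroxides in linked steps, and dopaminergic neurons, which oxidize dopamine and run a large mitochondrial respiratory load, are a tissue in which these steps are widely studied. Superoxide dismutases turn superoxide into hydrogen peroxide, catalase, glutathione peroxidases and peroxiredoxins remove the peroxide, and glutathione, thioredoxin and their reductases return the enzymes to the reduced state. NRF2, held in check by KEAP1, switches on many genes of glutathione and thioredoxin metabolism, and ferritin stores iron in a form that cannot drive peroxide breakdown into radicals. The 47 genes described here are the mouse genes listed for these functions, out of 53700 gene IDs in the count table. They were chosen by symbol, with earlier results of these data known. All 47 were found, all had reads and all received an adjusted p.

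Ribosome-bound RNA was purified from midbrains of C57BL/6 mice aged 4 months by BAC-TRAP, in which Cre recombinase switches on an EGFP-tagged ribosomal protein (L10a) and the tagged ribosomes are pulled down. All mice of both groups received AAV:THCre, a virus in which a tyrosine hydroxylase promoter drives Cre, 1 month before collection, and all carried the L10a tag. Mice labelled L10a;Esrrg WT (3 libraries, replicates 2, 3 and 4) had no floxed allele, whereas in mice labelled L10a;Esrrg Flox (2 libraries, replicates 2 and 4) the same Cre also removes exon 2 of Esrrg, the gene of estrogen-related receptor gamma (ERRγ). Each library is a pool of mice, so the spread between libraries is a spread between pools, and RNA of cells without the virus can be carried along with the tagged ribosomes. The question addressed was which genes differ in the ribosome-bound RNA after loss of Esrrg.

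The libraries held 20635855 to 23105058 assigned counts. A count of 0 allows a level of 0.130 to 0.145 CPM (counts scaled to a common library total), that of 3 counts, and this limit covers counting error only. Normalized counts below are counts divided by the DESeq2 size factor, and fold changes are log2 of Flox over WT with their standard error (SE). Esrrg was at 1763, 1643 and 1726 normalized counts in WT replicates 2, 3 and 4 and at 1504 and 1170.1 in Flox replicates 2 and 4. The log2 fold change of -0.36 (SE 0.13) did not pass (DESeq2 adjusted p = 0.0734), and since only exon 2 is deleted, these totals over the gene do not measure the deletion. Of 15228 genes with an adjusted p, 659 were higher and 647 lower in Flox at an adjusted p under 0.05.

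The 5 libraries include no input and no Cre-negative pulldown, so they cannot show how far dopaminergic RNA was enriched. By quantitative PCR, the study reported enrichment of Th but not of Gad65 over Cre-negative mice. Dopaminergic markers were abundant, with Th at 9849 to 12813 normalized counts over the 5 libraries, but Gfap of astrocytes stood at 18865 to 32741. The libraries therefore carried much RNA of other cell types, and the levels given here are those of a mixed, ribosome-bound pool. Of 11 dopaminergic markers 9 had a negative log2 fold change and 2 (Slc18a2 and Ddc) a positive one. In 4 both Flox libraries lay below every WT library (22.9% of all genes did). In Slc18a2 and Ddc both lay above (19.9% of all genes did). Only 1 (Ret) passed, as lower in DESeq2 (-0.40, adjusted p = 0.00282). In edgeR 0 passed, and 3 had an unadjusted p under 0.05, all lower. The sum of the 11 overlapped between groups (51078 to 60871 in WT, 52075 and 54811 in Flox). Of 5 GABAergic markers Gad2 was lower (adjusted p = 0.0294) and Sst higher (adjusted p = 0.0152) in DESeq2. In edgeR 0 passed, with 1 higher and 2 lower at an unadjusted p under 0.05. The sum of the 5 did not overlap (32015 to 32453 in WT, 31481 and 29478 in Flox). The sums overlapped for astrocytes (74829 to 109200, against 78873 and 102550) and for oligodendrocytes (110260 to 163130, against 125770 and 149820). Of 12 microglial markers 11 lay above every WT library in both Flox libraries (19.9% of all genes did), and P2ry12 overlapped. The sum of all 12 was 3009, 3677 and 1886 in WT replicates 2, 3 and 4. It was 6578 and 14703 in Flox replicates 2 and 4, without overlap. In DESeq2 10 of the 12 passed as higher (7 in edgeR). Of 8 endothelial markers 3 were higher (0 in edgeR, where 5 had an unadjusted p under 0.05, with sums of 120.1 to 282 in WT and 285 and 773 in Flox), 0 of 5 blood markers passed in DESeq2 (851 to 2261 in WT, 3292 and 2204 in Flox) and 53 of 84 cytosolic ribosomal protein genes were higher (31 in edgeR) with 0 lower in either test. None of the markers of these cell types was at 0 in a library. How far these shifts contribute to the values of the 47 genes was not tested, and in such bulk RNA fewer cells of a type and less RNA per cell cannot be told apart.

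**Figure D1:**
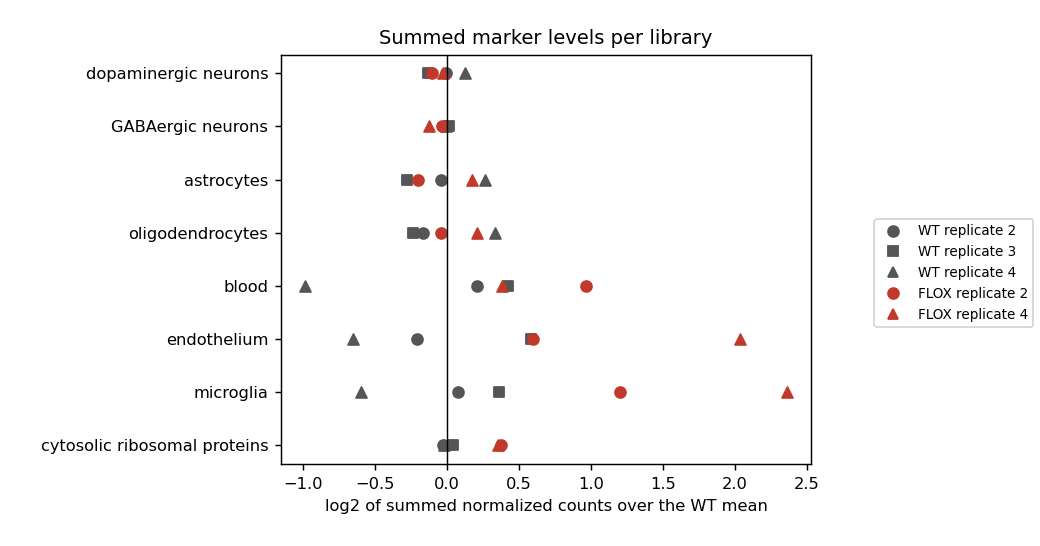
Summed normalized counts of marker gene lists in each library, as log2 of the ratio to the WT mean of the same list (horizontal axis), for 8 lists. Grey symbols are WT and red symbols Flox libraries, with the symbol giving the replicate number. Microglial and ribosomal protein lists are higher in both Flox libraries, the GABAergic list is slightly lower in both, and the dopaminergic, astrocyte and oligodendrocyte lists overlap and split by library within each group.

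Of the 47 defence genes, 6 were higher in Flox (12.8%), against 4.33% of all genes tested, and 2 were lower (4.26%), against 4.25%. Ferritin light chain Ftl1, thioredoxin inhibitor Txnip, glutathione peroxidases Gpx1 and Gpx3, thioredoxin Txn1 and the membrane-bound glutathione transferase Mgst1 rose, and the haem oxygenase Hmox2 and the sulfiredoxin Srxn1 fell. With a fold change of at least 1.5 as well, 3 genes remained higher (Ftl1, Txnip and Mgst1, background 1.81%) and only Hmox2 lower (background 1.46%). The defence genes are abundant ones, and among the 12031 genes with a mean of at least 77.5 normalized counts, that of the lowest defence gene, 9.93% passed in either direction, against 17.0% of the 47. The median log2 fold change over the 47 was 0.14 (34 above 0, 13 below), against -0.01 over all genes tested. In 15 genes both Flox libraries lay above every WT library (31.9%, against 19.9% of all genes) and in 8 both lay below (17.0%, against 22.9%).

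The number of calls depended on the test and on the libraries. With edgeR's quasi-likelihood test only Ftl1 and Txnip passed (edgeR adjusted p = 0.044 for each), in a fit that called 1.42% of all genes, although all 8 had an unadjusted p under 0.05 there. Without Flox replicate 4 only Ftl1 passed of the 43 defence genes that kept an adjusted p, without WT replicate 2 only Ftl1, Txnip and Hmox2 passed, and without WT replicate 4 there were 10 calls among 39. With the trend on merged exon length removed, Ftl1, Txnip, Hmox2 and Srxn1 kept their calls and Gpx1 (log2 fold change 0.27), Gpx3 (0.38), Txn1 (0.31) and Mgst1 (0.55) lost them, with adjusted p of 0.106, 0.0796, 0.116 and 0.0881 in DESeq2. The 8 genes kept their direction in every one of these fits.

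**Figure D2:**
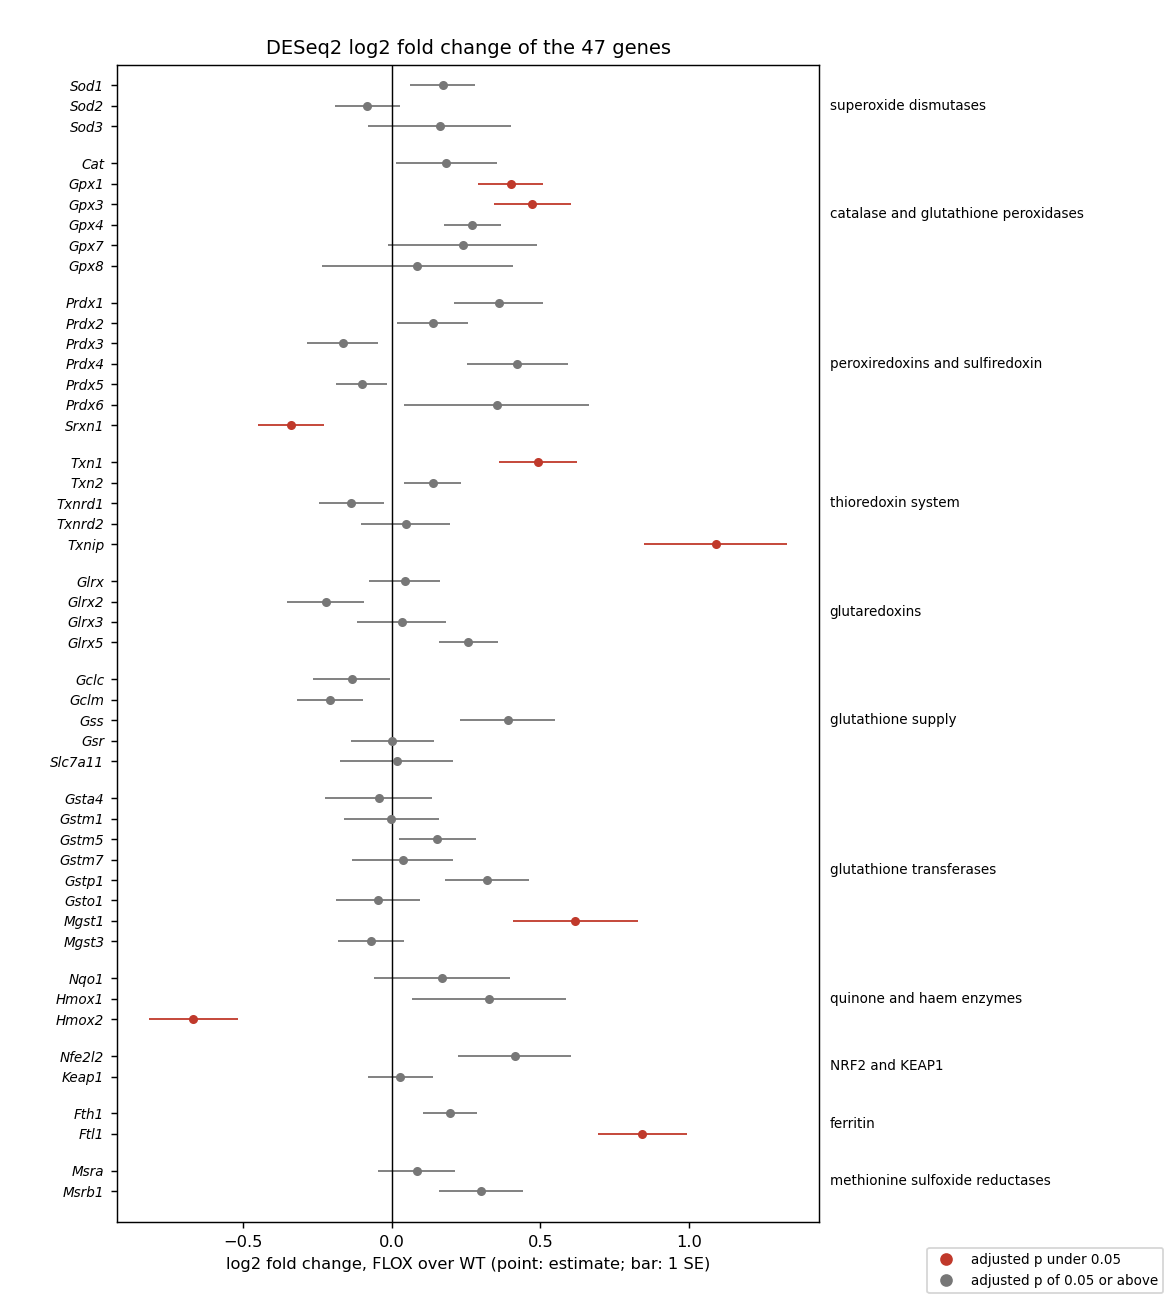
DESeq2 log2 fold change of Flox over WT for each of the 47 genes (points, with bars of 1 SE), ordered by role, with 3 WT and 2 Flox libraries. Red points passed an adjusted p of 0.05. The 6 higher genes are spread over glutathione peroxidases, the thioredoxin system, glutathione transferases and ferritin, and the 2 lower ones are Srxn1 and Hmox2.

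Ferritin, the iron store, is a shell built from heavy chains, which oxidize iron, and light chains, which help to deposit it. Ftl1 (ENSMUSG00000050708.17, chromosome 7), the light chain, showed the smallest adjusted p of the 47 genes. It was at 2723, 2569 and 2157 normalized counts in WT replicates 2, 3 and 4 and at 3845 and 5065 in Flox replicates 2 and 4. The groups did not overlap, and the mean rose by 79.4%, from 2483 ± 293 (SD, n = 3) to 4455 ± 863 (SD, n = 2), with a log2 fold change of 0.84 ± 0.15 SE (adjusted p = 3.48e-06 in DESeq2). The heavy chain Fth1 was at 19756, 18706 and 18041 in WT and at 21196 and 21918 in Flox. Both Flox libraries were again above WT, but the difference was small and did not pass (log2 fold change 0.19 ± 0.09 SE, adjusted p = 0.194 in DESeq2). The ratio of Ftl1 to Fth1 normalized counts was 0.138, 0.137 and 0.12 in WT and 0.181 and 0.231 in Flox, so that the light chain gained on the heavy chain in both Flox libraries. For Ftl1 the lowest library was WT replicate 4 and the highest was Flox replicate 4, which were also the lowest and the highest for the summed microglial markers. WT replicates 2 and 3 were in the opposite order (2723 and 2569 for Ftl1, 3009 and 3677 for the markers). The share of all genes with these extremes was not counted, and a link was not tested. Reads of Ftl1 can be shared with its processed copy Ftl1-ps1, which held 7 to 27 reads per library.

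Glutathione peroxidases reduce peroxides with glutathione, and catalase breaks hydrogen peroxide down directly. All 6 genes of this role had a positive log2 fold change (0.09 to 0.47, median 0.25), and 2 of them rose. Gpx1 (ENSMUSG00000063856.9, chromosome 9), the cytosolic and mitochondrial enzyme, was at 3141, 3172 and 2924 normalized counts in WT and at 3811 and 4315 in Flox, and it rose from 3079 ± 135 to 4063 ± 356 (log2 fold change 0.40 ± 0.11 SE, adjusted p = 0.00595 in DESeq2). For Gpx1, as for Ftl1, WT replicate 4 was lowest and Flox replicate 4 highest. The other higher genes, Gpx3, Txn1, Txnip and Mgst1, did not have these extremes. Gpx3 (ENSMUSG00000018339.13, chromosome 11), the secreted enzyme, was at 4026, 4294 and 3207 in WT and at 5556 and 5106 in Flox, a rise from 3842 ± 566 to 5331 ± 319 (log2 fold change 0.47 ± 0.13 SE, adjusted p = 0.0109 in DESeq2). In contrast to Gpx1, its highest library was Flox replicate 2.

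Gpx4, which reduces lipid peroxides in membranes and guards against ferroptosis, was the most abundant gene of the role per length (263 CPM per kb of merged exons in WT). Its counts were 9578, 9613 and 10452 in WT and 11592 and 12240 in Flox, without overlap, and it missed the threshold by little (log2 fold change 0.27 ± 0.10 SE, adjusted p = 0.0542 in DESeq2). It passed after genes that reached 10 counts in fewer than 2 libraries were dropped, when the trend with GC content was removed, and without WT replicate 4, whereas its log2 fold change dropped to 0.175 with the trend on merged exon length removed (adjusted p = 0.247 in DESeq2) and to 0.105 with that on principal transcript length removed (adjusted p = 0.554 in DESeq2). Its copy Gpx4-ps2 held 610 to 739 reads in WT and 848 and 877 in Flox, so reads of both loci may have been split and the value is uncertain. Gpx7 of the endoplasmic reticulum (0.24) also lay above WT in both Flox libraries, at 105 to 107 counts in WT and 118 and 131 in Flox, while Cat (0.18) and Gpx8 (0.09), another enzyme of the endoplasmic reticulum, overlapped.

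**Figure D3:**
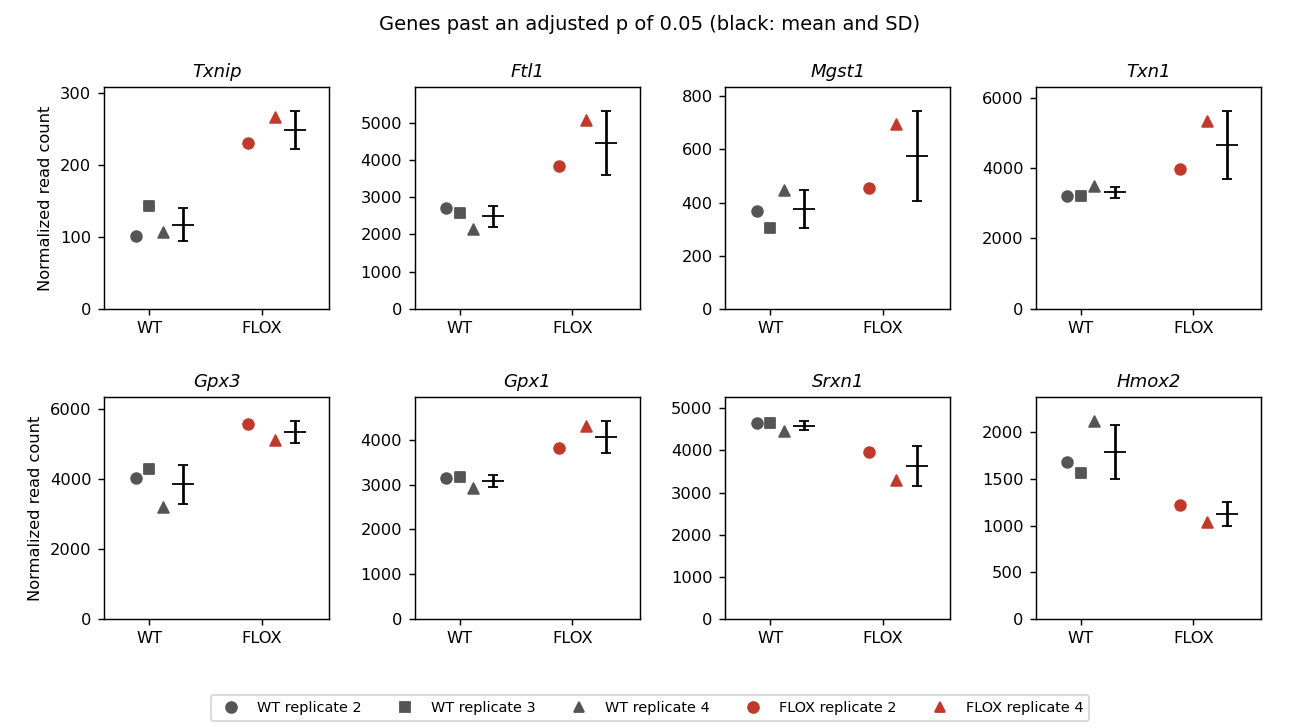
Normalized read counts (vertical axes, from 0) of the 8 genes past an adjusted p of 0.05 in each WT (grey) and Flox (red) library, with the symbol giving the replicate number. Black bars are mean and SD of 3 WT and 2 Flox libraries. The groups do not overlap in any of the 8 genes, and Flox replicate 4 lies farther from WT than Flox replicate 2 in all but Gpx3.

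The thioredoxin system passes electrons from NADPH through thioredoxin reductases to thioredoxins, and TXNIP binds and inhibits thioredoxin. Both the carrier and its inhibitor rose. Txn1 (ENSMUSG00000028367.6, chromosome 4), the cytosolic thioredoxin, was at 3205, 3213 and 3498 normalized counts in WT and at 3967 and 5332 in Flox, a rise from 3305 ± 167 to 4650 ± 965 (log2 fold change 0.49 ± 0.13 SE, adjusted p = 0.00746 in DESeq2). The gap between the Flox libraries was wider than the gap between Flox replicate 2 and the WT libraries. Its copy Txn-ps1 held at most 4 reads in a library.

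Txnip (ENSMUSG00000038393.15, chromosome 3) had the largest fold change of the 47 and was among the least abundant of them, at 101, 144 and 107 normalized counts in WT and 231 and 267 in Flox. The groups did not overlap, and the mean went from 117 ± 23.1 to 249 ± 26.1, a rise of 113% (log2 fold change 1.09 ± 0.24 SE, adjusted p = 3.66e-04 in DESeq2). The ratio of Txnip to Txn1 normalized counts was 0.0305 to 0.0447 in WT and 0.0581 and 0.0501 in Flox. The mitochondrial thioredoxin Txn2 (0.14) lay above WT in both Flox libraries without passing, and the ratio of Txn1 to Txn2 was 0.907, 0.86 and 0.959 in WT and 1 and 1.32 in Flox. Of the reductases, the cytosolic Txnrd1 (-0.14) lay below WT in both Flox libraries and the mitochondrial Txnrd2 (0.05) overlapped, with no call for either.

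Peroxiredoxins are abundant thiol peroxidases, and sulfiredoxin repairs those of them that peroxide has overoxidized. In this role 0 of 7 genes rose in DESeq2 (2 had an unadjusted p under 0.05 and a positive fold change), 1 fell, and the median log2 fold change was 0.14. Srxn1 (ENSMUSG00000032802.9, chromosome 2), the sulfiredoxin, was at 4663, 4641 and 4469 normalized counts in WT and at 3964 and 3290 in Flox, a fall from 4591 ± 106 to 3627 ± 477 (log2 fold change -0.34 ± 0.11 SE, adjusted p = 0.0355 in DESeq2). The WT libraries were within a narrow range, and both Flox libraries lay below it. Its cytosolic substrate Prdx1 was at 3619, 3622 and 4692 in WT and at 4418 and 5797 in Flox. The groups overlapped for Prdx1, whose log2 fold change of 0.36 (SE 0.15) did not pass (DESeq2 adjusted p = 0.129). The ratio of Srxn1 to Prdx1 was 1.29, 1.28 and 0.952 in WT and 0.897 and 0.567 in Flox, so that both Flox libraries were below every WT library.

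Prdx4, the peroxiredoxin of the endoplasmic reticulum, was at 465, 437 and 378 in WT and at 500 and 642 in Flox (log2 fold change 0.42 ± 0.17 SE, adjusted p = 0.108 in DESeq2). These groups did not overlap, with WT replicate 4 lowest and Flox replicate 4 highest. Prdx5, found in mitochondria, peroxisomes and cytosol, had the highest level per length of all 47 genes by merged exons (375 CPM per kb in WT). Its normalized counts were nearly level, at 17547, 17229 and 17725 in WT and 16134 and 16473 in Flox, below WT in both Flox libraries (log2 fold change -0.10 ± 0.09 SE, adjusted p = 0.569 in DESeq2). The mitochondrial Prdx3 (-0.17) also lay below WT in both Flox libraries, and Prdx2 (0.14) and Prdx6 (0.35), the latter with a wide spread of 5521 to 8657 in WT and 7249 and 10472 in Flox, overlapped.

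The haem oxygenases split haem, which frees iron, and NQO1 reduces quinones. Hmox2 (ENSMUSG00000004070.16, chromosome 16), the constitutive haem oxygenase, fell furthest of the 47 genes. It was at 1680, 1565 and 2120 normalized counts in WT and at 1215 and 1037 in Flox, and the mean went from 1789 ± 293 to 1126 ± 126, a change of -37.0% (log2 fold change -0.67 ± 0.15 SE, adjusted p = 8.20e-04 in DESeq2). Both Flox libraries lay below the lowest WT library. The inducible Hmox1 was at 245, 169 and 274 in WT and at 223 and 353 in Flox, with overlap and no call (log2 fold change 0.33). The ratio of Hmox1 to Hmox2 was 0.146, 0.108 and 0.129 in WT and 0.183 and 0.34 in Flox. Nqo1 (0.17), at 123 to 163 in WT and 152 and 170.0 in Flox, overlapped.

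Glutathione transferases couple glutathione to reactive compounds. Of 8 genes, 1 rose, and the median log2 fold change was 0.02, a value below 0 (-0.09) once the trend on merged exon length was removed. Mgst1 (ENSMUSG00000008540.12, chromosome 6), a membrane-bound transferase with peroxidase activity, was at 370, 306 and 449 normalized counts in WT and at 455 and 695 in Flox. Flox replicate 2 lay only just above the highest WT library, and the rise from 375 ± 71.6 to 575 ± 169 passed narrowly (log2 fold change 0.62 ± 0.21 SE, adjusted p = 0.0482 in DESeq2) and was lost in 9 of 12 alternatives, with a log2 fold change of 0.28 without Flox replicate 4. Gstp1 of the pi class had the highest mean level of the transferases per merged exon length (141.1 CPM per kb in WT), but did not separate from Mgst3 (140.4), which was higher in WT replicates 2 and 3. It was at 4537, 4259 and 5514 counts in WT and 5327 and 6583 in Flox, overlapping (log2 fold change 0.32 ± 0.14 SE, adjusted p = 0.147 in DESeq2). The other transferases, Gstm5 (0.15), Gstm7 (0.04), Gstm1 (-0.00), Gsta4 (-0.04), Gsto1 (-0.05) and Mgst3 (-0.07), all overlapped between groups.

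The genes that supply glutathione had no call among 5 in DESeq2 or edgeR, with 1 (Gss) at an unadjusted p under 0.05 in both. Both subunits of glutamate-cysteine ligase, the rate-limiting enzyme of glutathione synthesis, lay below WT in both Flox libraries without passing. The catalytic subunit Gclc was at 783 to 852 in WT and 759 and 723 in Flox (-0.14), and the modifier subunit Gclm at 1599 to 1718 in WT and 1500 and 1367 in Flox (-0.21). Glutathione synthetase Gss, which completes the molecule, was at 357, 382 and 358 in WT and at 436 and 523 in Flox, above WT in both (log2 fold change 0.39 ± 0.16 SE, adjusted p = 0.112 in DESeq2). Glutathione reductase Gsr, which regenerates it, was at 774, 708 and 830 in WT and 720 and 824 in Flox, a log2 fold change of 0.00 (SE 0.14) whose sign turned with the library scaling. Slc7a11, the cystine importer, had the lowest level per length of all 47 (0.836 CPM per kb in WT) and did not differ detectably (0.02, SE 0.19).

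Superoxide dismutases had no call among 3 in DESeq2 or edgeR, and 0 at an unadjusted p under 0.05. Sod1, the cytosolic enzyme, was at 15444, 15345 and 17171 normalized counts in WT and at 16867 and 19138 in Flox (log2 fold change 0.17 ± 0.11 SE, adjusted p = 0.370 in DESeq2), and this value turned to -0.08 when the trend with the length of the principal transcript was removed. The mitochondrial Sod2 (-0.08) and the extracellular Sod3 (0.16) overlapped too. Glutaredoxins, which use glutathione to reduce protein disulfides or carry iron-sulfur clusters, had no call among 4 in DESeq2 or edgeR, with 1 (Glrx5) at an unadjusted p under 0.05. Glrx5, a mitochondrial iron-sulfur carrier, was at 3422, 3438 and 3722 in WT and at 4130 and 4304 in Flox, above WT in both (log2 fold change 0.26 ± 0.10 SE, adjusted p = 0.0860 in DESeq2), and it passed once a length trend was removed. The mitochondrial Glrx2 lay below WT in both Flox libraries (-0.22), and Glrx (0.04) and Glrx3 (0.03) overlapped.

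The regulators themselves did not pass in DESeq2 or edgeR, and Nfe2l2 alone had an unadjusted p under 0.05. Nfe2l2, the gene of NRF2, was at 214, 236 and 264 in WT and at 286 and 349 in Flox, without overlap (log2 fold change 0.41 ± 0.19 SE, adjusted p = 0.178 in DESeq2). Keap1 was at 1546, 1492 and 1358 in WT and 1504 and 1483 in Flox (log2 fold change 0.03 ± 0.11 SE, adjusted p = 0.937 in DESeq2). Of the methionine sulfoxide reductases, which repair oxidized methionine, Msrb1 was at 943, 824 and 999 in WT and at 1020 and 1252 in Flox (log2 fold change 0.30 ± 0.14 SE, adjusted p = 0.201 in DESeq2), with both Flox libraries above WT, and Msra (0.08) overlapped. Msrb1 alone of the pair had an unadjusted p under 0.05, in both tests.

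**Figure D4:**
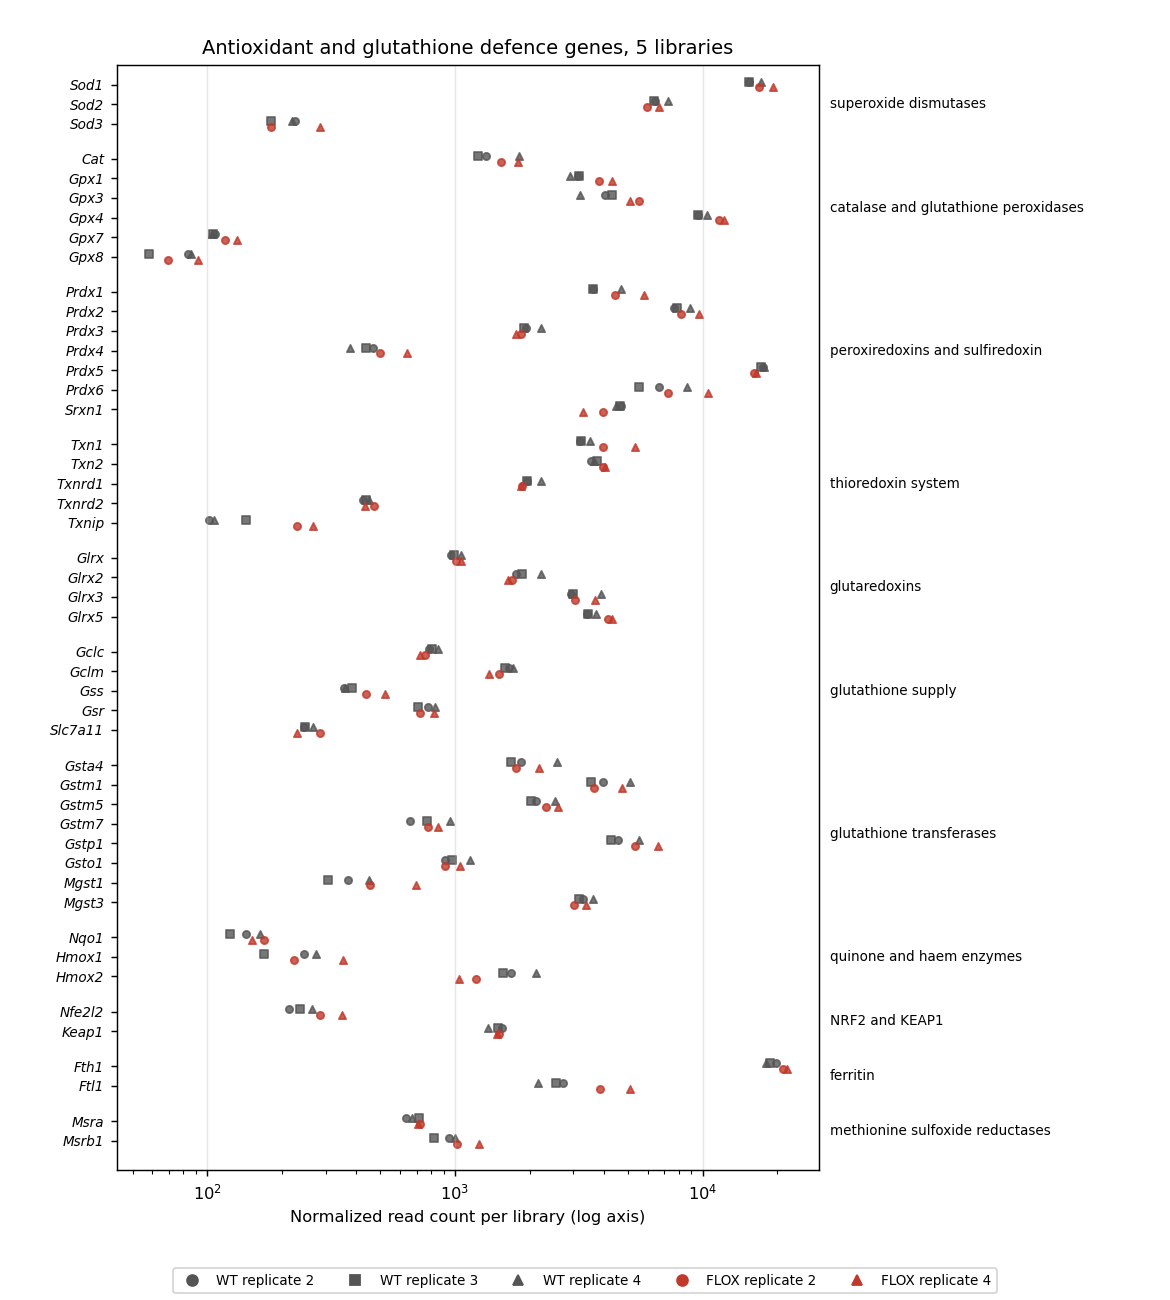
Normalized read counts on a log axis for all 47 genes in 3 WT (grey) and 2 Flox (red) libraries, ordered by role, with the symbol giving the replicate number. Counts are not corrected for gene length. Levels run from 58.1 for Gpx8 to 21918 for Fth1, and the Flox libraries lie above all WT libraries in 15 genes, below them in 8 and among them in the rest.

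Promoter sequence was examined for the antioxidant response element that NRF2 binds, searched as TGACNNNGC, and for the extended ERR half-site, searched as TNAAGGTCA, each on both strands of the RefSeq windows from 250 bases before to 50 bases after the start site (GRCm38.p6). The motifs share the letters TGAC with each other and with AP-1 sites. Windows were held for 40 of the 47 genes, and all 8 genes that passed were among them. The antioxidant motif was in 9 of 40 (22.5%), against 14.0% of 27025 genes. A gene with more windows has more chances of a match, and by window the shares were closer, at 16.4% of 55 against 12.4% of 32851. The 9 genes were Mgst1, Srxn1, Prdx1, Gclm, Txnrd1, Sod1, Gstm5, Gstm7 and Nfe2l2, of which Mgst1 rose and Srxn1 fell. The ERR motif was in 1 of 40 (2.50%), against 1.43% (by window, 1.82% against 1.28%). That gene was Glrx3, which had no call. A match is a string of letters and not a bound site. The sequences below are the matches of the genes that passed, of Prdx1 (the only peroxiredoxin with a match) and of the ERR motif. Those of the ligase and reductase genes of glutathione and thioredoxin are also given. Prdx4, which came nearer to passing than Prdx1, had a window but no match. Each sequence has 10 bases on either side and is written 5′ to 3′ along the gene's strand with the motif in capitals.
Mgst1, chr6:138140461-138140489, plus strand, motif at -56: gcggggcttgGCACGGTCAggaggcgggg
Srxn1, chr2:152105542-152105570, plus strand, motif at 29: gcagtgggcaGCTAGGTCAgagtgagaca
Prdx1, chr4:116685456-116685484, plus strand, motif at -133: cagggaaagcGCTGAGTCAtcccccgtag
Gclm, chr3:122245413-122245441, plus strand, motif at -134: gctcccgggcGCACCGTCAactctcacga
Txnrd1, chr10:82859104-82859132, plus strand, motif at -92: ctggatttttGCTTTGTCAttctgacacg
Glrx3, chr7:137437513-137437541, plus strand, motif at -50: tccgagggcgTGACCTTCAgtgccggagg
The positions are those of the motif's first base relative to the start site, which is position 1 and is preceded by -1. In all 6 windows the motif is read on the opposite strand to the gene. Mgst1 is the only gene with a call whose match lies before the start site, and the 250 bases there (chr6:138140277-138140526, plus strand) show the motif in its surroundings.
Mgst1 promoter: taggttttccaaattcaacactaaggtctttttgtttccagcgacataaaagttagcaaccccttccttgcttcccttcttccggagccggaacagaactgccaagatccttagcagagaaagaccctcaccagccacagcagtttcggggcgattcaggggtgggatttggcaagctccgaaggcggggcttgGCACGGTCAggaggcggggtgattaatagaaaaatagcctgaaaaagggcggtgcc

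Per length of merged exons, the order of WT levels was led by Prdx5 (375 CPM per kb), Gpx4 (263), Fth1 (249) and Sod1 (184.5). Fth1 spanned 234 to 262 and Gpx4 256 to 273 over the WT libraries, so these neighbours did not separate beyond their spread. The order depends on the length used. By the length of the principal transcript, chosen after the data were seen, Sod1 led (1143 CPM per kb), followed by Prdx5 (636), Fth1 (578) and Gpx4 (472). The highest of each other role by merged exons were Txn1 (144), Gstp1 (141), Glrx5 (43.9), Hmox2 (36.9), Msrb1 (33.6), Keap1 (14.3) and Gsr (12.8). The genes that passed stood at 98.0 (Gpx1), 97.3 (Gpx3), 85.1 (Ftl1), 74.7 (Srxn1), 8.52 (Mgst1) and 1.72 (Txnip).

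Many defence genes also differed between the libraries of a group, in genes with and without a call. Whether equal replicate numbers share more than a number is not known. In 28 of 47 (59.6%) replicate 4 was above replicate 2 in both groups, against 28.5% of genes tested. In 15 of 47 (31.9%, against 12.5%) the order of the libraries in both groups was that of the summed astrocyte markers, which was also the order of the oligodendrocyte and of the dopaminergic markers, so these cell types cannot be told apart by it. These 15 were Sod1, Sod2, Cat, Gpx8, Prdx5, Prdx6, Gsr, Gsta4, Gstm1, Gstm5, Gstp1, Mgst1, Mgst3, Hmox1 and Msrb1. Among the genes that passed, only Mgst1 had this order.

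**Figure D5:**
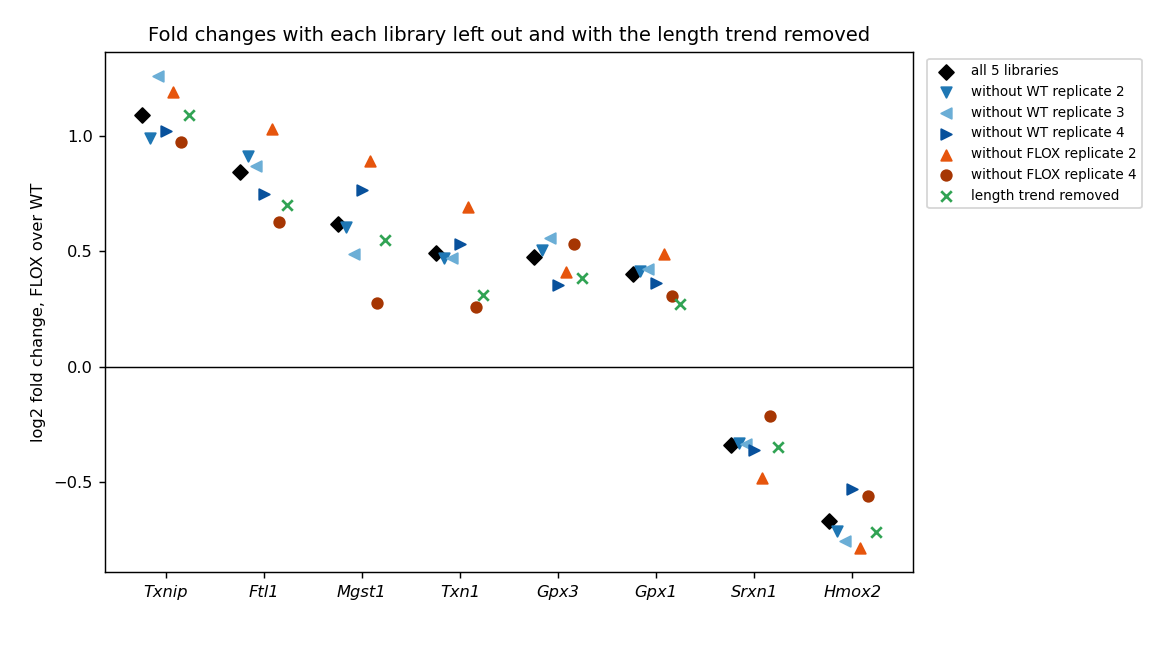
DESeq2 log2 fold change of Flox over WT (vertical axis) of the 8 genes that passed, with all 5 libraries, with each library left out in turn and with the length trend removed. All values keep their side of 0. Without Flox replicate 4 those of Mgst1, Txn1 and Srxn1 lie closest to 0.

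Other genes of the same pathways, 97 in 6 lists, gave 4 higher (4.76%) and 3 lower (3.57%) among 84 with an adjusted p, near the shares of all genes (4.33% and 4.25%), so the values below describe single genes. Of 12 genes of selenoproteins and of their synthesis 3 rose, all of them selenoproteins, and 0 fell. Selenow, a small thioredoxin-like selenoprotein, was at 14949, 16280 and 14539 normalized counts in WT and at 20535 and 23144 in Flox (log2 fold change 0.52 ± 0.10 SE, adjusted p = 1.06e-04 in DESeq2). The others were the endoplasmic reticulum proteins Selenos (0.49, DESeq2 adjusted p = 0.0199) and Selenok (0.33, DESeq2 adjusted p = 0.0428). Of 11 further glutathione transferases and peroxidases with an adjusted p, only Gstm6 rose, from 388 to 449 in WT to 612 and 729 in Flox (log2 fold change 0.65 ± 0.15 SE, adjusted p = 0.00168 in DESeq2). Whether reads were split between the related mu-class genes was not tested. Selenow is short, with 0.74 kb of merged exons. The fits with a length trend removed were not read out for the genes of these 6 lists.

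Of 15 further genes of iron handling 2 fell (all genes, 4.25%) and 0 rose. Ncoa4, the receptor that delivers ferritin to the lysosome, was at 552, 514 and 601 in WT and at 417 and 316 in Flox (log2 fold change -0.60 ± 0.17 SE, adjusted p = 0.0105 in DESeq2). Pcbp2, an RNA-binding protein that also carries iron, was at 3571 to 4621 in WT and 3211 and 2849 in Flox (log2 fold change -0.43 ± 0.13 SE, adjusted p = 0.0183 in DESeq2). Both lay below WT in each Flox library, and neither passed in edgeR. Among thioredoxin-fold and repair genes, 1 of 15 passed. This was Oxr1, named for resistance to oxidation, which fell from 4469 to 4654 in WT to 3914 and 3442 in Flox, by a log2 fold change of -0.32 ± 0.10 SE (adjusted p = 0.0311 in DESeq2). Neither DESeq2 nor edgeR made a call among 12 further genes of glutathione supply and breakdown, with 0 at an unadjusted p under 0.05, or among 19 of the NRF2 pathway, with 2 (Nfe2l1 and Aifm2, both with a negative fold change). In edgeR only Gstm6 and Selenow of these lists passed.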

How the data were processed

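The 47 genes and all further lists were chosen with earlier results of these data known. Per the labels and the study's methods, the authors built libraries from poly(A) RNA without strand information, trimmed the reads with Trim Galore, aligned them with STAR and counted reads per gene with HTSeq. The deposited table holds the authors' raw read counts, not normalized. The sources name different genome builds (GRCm38 and GRCm39), so no coordinates are given for table genes, and overlapping or antisense genes cannot be told apart. Lines for unassigned reads (outside genes 3.18% to 4.45%, ambiguous 5.62% to 5.78%, not unique 3.60% to 4.23%) were left out. Names, exon lengths and GC content came from GENCODE M21 by ID without version (52147 of 53700 matched), and levels per length are CPM per kb of merged exons.

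All rows were fitted with DESeq2 1.42.0 in R 4.3.3 (Wald test, two-sided, group only, default size factors, independent filtering, Benjamini-Hochberg adjustment, threshold 0.05), and only the listed genes are shown. An edgeR 4.0.16 quasi-likelihood fit and the other alternatives in the closing section were run, and the scripts were tested on simulated data. An exact permutation test of 3 against 2 libraries was not used. Named were Esrrg, genes that passed, the 5 nearest misses, the highest of each role per length, and further list genes only if they passed. Nfe2l1, Aifm2 and the remaining genes shown with library values were chosen after their values were seen. Every 2 libraries differed by more than sampling noise (chi-square per degree of freedom 4.25 to 45.8).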

Additional observations from a re-analysis of the deposited data

How the results depend on the processing

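Against 6 higher and 2 lower genes, edgeR's quasi-likelihood test gave 2 higher and 0 lower (1.42% of all genes called, and both lower genes at an unadjusted p under 0.05), the length trend removed 3 higher, the principal transcript length trend removed (added after seeing the data) 3 and 1 (in both length fits the higher genes were Ftl1, Txnip and the newly called Glrx5, so only 2 of the 6 were kept), no independent filtering 1 lower, and a fold change of at least 1.5 as well 3 and 1. With the replicate block there were 2 higher and 1 lower (Gpx3, Txn1 and Hmox2), and Ftl1 no longer passed (DESeq2 adjusted p = 0.166), while Txnip had no adjusted p. The labels do not say that equal numbers mark shared mice or days. Deviations from the group means correlated at 0.15 and 0.107 between equal numbers over 11522 genes. With 2 Flox libraries these deviations mirror each other, so crossed numbers give -0.15 and -0.107 by construction. The correlations therefore cannot decide whether the samples are paired, and whether they share more than a number is not known. Leaving out 1 library at a time gave 1 to 8 higher and 0 to 2 lower genes, fewest without Flox replicate 4 (1 and 0) and then without WT replicate 2 (2 and 1). It moved the log2 fold change of Esrrg between -0.548 and -0.189, past the threshold only without Flox replicate 2 (DESeq2 adjusted p = 0.00567).

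Over 93 fits of the 8 genes with an adjusted p, 57 kept the call, 36 lost it and 0 reversed, Mgst1 losing it in 9 of 12 and Txnip in 0 of 9. The lost fits include Hmox2 in edgeR (adjusted p = 0.0518) and without Flox replicate 4 (0.132). Of the 20 named genes, those that reversed were Gsr (-0.00678 with TMM, -0.058 with the replicate block, -0.00834 with the length trend removed, and -0.103 to 0.0959 on leaving out libraries), Keap1 (-0.0271 to 0.067 on leaving out libraries) and Sod1 (-0.076 with the principal transcript length trend removed). Over all 47 genes, 31 kept their sign in every fit, and the other 16 had a log2 fold change of at most 0.326 in size. The median kept its sign, from 0.06 without Flox replicate 4 to 0.22 without Flox replicate 2. Where no cause is named, the cause was not tested. Precision varied with more than depth: Gpx8, the lowest of the 47 at 58.1 to 91.5 normalized counts, had an SE of 0.32, and Prdx6, at 5521 to 10472, one of 0.31.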
